A study of Mus musculus with 6 samples.

Results

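Single-cell RNA-seq of mouse retina was read for 10 genes of the chemokine, CSF1 and TNF systems: the CC chemokines Ccl2, Ccl12, Ccl3 and Ccl4, the CXC chemokine Cxcl12 and its receptor Cxcr4, the growth factors Csf1 and Il34 and their shared receptor Csf1r, and the cytokine gene Tnf. They were taken by gene symbol, and all 10 were found among the 31053 genes listed. The study compared 3 samples with oxygen-induced retinopathy (OIR) and 3 controls (Ctrl), each a pool of retinas from 2 mice at postnatal day 17 (P17). OIR pups breathed 75% oxygen from P7 to P12 and room air afterwards, which first stops vessel growth and then leaves the retina hypoxic, and Ctrl pups stayed in room air throughout. Neither the strain nor the sex of the mice was given in the sources used here. All 6 samples were dissociated with enzymes at body temperature. The labels call the material retinal endothelial cells of adult mice, whereas 25362 of the 38569 cells kept carried rod markers and 194 carried endothelial markers, so that the material is described here as whole retina. Cells were named from marker genes with the ending "-like". RNA of Xist without Y-linked RNA was found in Ctrl-2 and Ctrl-3, and the reverse in the other 4 samples. Sex and group thus go partly together and cannot be fully told apart.

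Chemokines are small secreted proteins that steer cells along gradients. CCL2 and, in mice, CCL12 attract monocytes through the receptor CCR2, CCL3 and CCL4 attract macrophages and other leukocytes, and CXCL12 acts on CXCR4 and guides vessel growth and progenitor cells. Microglia, the resident macrophages of the retina, need CSF1R signalling to survive, and CSF1 and IL-34 are its 2 ligands. TNF is an inflammatory cytokine made mainly by macrophages and microglia that activates NF-kappaB.

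On mouse build GRCm38 the CC chemokine genes among the members all lie on chromosome 11. Genes that lie between them were not looked at. Ccl2 (chr11:82035571-82037453, plus strand) and Ccl12 (chr11:82101845-82103400, plus strand) are 64391 bases apart, and Ccl3 (chr11:83647844-83649355, minus strand) and Ccl4 (chr11:83662584-83664683, plus strand) are 13228 bases apart. No stretch of 30 bases was shared by the last 500 transcript bases of either pair. Other members lie on other chromosomes, with Cxcl12 at chr6:117168535-117181367 (plus strand), Cxcr4 at chr1:128588199-128592293 (minus strand) and Csf1 at chr3:107741048-107760469 (minus strand). Il34 lies at chr8:110741829-110805924 (minus strand) and Tnf at chr17:35199381-35202007 (minus strand).

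The promoters of Ccl12, Cxcr4 and Cxcl12 are shown because these are the genes whose counts passed the test in a cell group. Each is the 250 bases before the RefSeq start on GRCm38.p6, on the gene's own strand, and capitals mark matches, on either strand, to hypoxia-response core sequences (ACGTG and GCGTG), an AP-1 site (TGANTCA), the NF-kappaB consensus (kappaB) or a TATA box (TATAAA). The Ccl12 promoter spans chr11:82101595-82101844, the Cxcr4 promoter chr1:128592300-128592549 and the Cxcl12 promoter chr6:117168285-117168534.
Ccl12: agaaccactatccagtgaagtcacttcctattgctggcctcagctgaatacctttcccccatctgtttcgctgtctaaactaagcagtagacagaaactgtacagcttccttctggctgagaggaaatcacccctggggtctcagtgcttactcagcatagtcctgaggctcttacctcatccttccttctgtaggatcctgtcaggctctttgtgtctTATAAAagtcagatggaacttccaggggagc
Cxcr4: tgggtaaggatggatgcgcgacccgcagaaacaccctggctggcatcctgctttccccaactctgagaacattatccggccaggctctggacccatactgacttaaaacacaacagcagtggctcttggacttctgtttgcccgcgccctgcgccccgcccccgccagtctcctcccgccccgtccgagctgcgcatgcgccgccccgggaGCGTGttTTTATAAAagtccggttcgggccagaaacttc
Cxcl12: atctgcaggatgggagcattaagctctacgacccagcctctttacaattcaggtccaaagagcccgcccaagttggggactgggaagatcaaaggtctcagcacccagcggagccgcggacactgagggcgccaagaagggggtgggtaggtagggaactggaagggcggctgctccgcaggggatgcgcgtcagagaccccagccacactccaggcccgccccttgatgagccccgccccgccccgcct
The Ccl12 window held a TATA box 31 to 26 bases before the start. The Cxcr4 window held GCGTG 39 to 35 bases before the start, next to TATAAA on both strands, at 32 to 27 and at 30 to 25 bases, which overlap. The Cxcl12 window held none of these letters. Among 32851 mouse promoters of the same length, GCGTG occurred in 28.2%, ACGTG in 16.6%, TATAAA in 12.4%, TGANTCA in 6.75% and the kappaB sequence in 0.14%. Of the other members with a promoter in the table, Tnf held TATAAA at 29 to 24 bases, Csf1 held the kappaB sequence on the opposite strand at 154 to 145 bases, and Ccl3 held no match. A match is a run of letters, not a measured binding site.

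The 10 genes fell into few cell types. Counts are unique molecular identifiers (UMIs), and a level is a gene's UMIs over all UMIs of the summed cells of a type, in CPM. Of 961 Ccl2 UMIs over all cells kept, 89.7% were in microglia-like cells, as were 92.3% of 1630 Ccl3, 89.7% of 1029 Ccl4, 82.7% of 2682 Ccl12, 84.7% of 5804 Csf1r and 92.2% of 334 Tnf UMIs. Microglia-like cells were 244 of the 38569 cells kept. The range of microglia-like levels over the 6 samples lay above that of every other named type for each of the 6, and the types below microglia-like cells had ranges that overlapped their next neighbour, apart from retinal pigment epithelium-like (RPE-like) cells for Csf1r.

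Cxcl12 had 3 sources. Vascular endothelial cell-like (VEC-like) cells held 67.9% of its 2371 UMIs, Müller-like cells 16.6% and astrocyte-like cells 7.93%. These shares are pooled over all samples and move with cell numbers. Ctrl-1 held 145 of the 194 VEC-like cells, and OIR-1, OIR-2 and OIR-3 held 25, 2 and 2. The pooled shares therefore do not give the order of sources within OIR samples. In samples with at least 10 cells of a type, the mean level was 915 ± 536 CPM (SD, n = 3) in VEC-like cells and 193 ± 82.1 CPM (SD, n = 3) in astrocyte-like cells, and these ranges did not overlap. Müller-like cells, the radial glia of the retina, had 12.6 ± 9.47 CPM (SD, n = 6), a range that overlapped those of amacrine-like and cone bipolar-like cells. In microglia-like cells not 1 of 2119348 UMIs was Cxcl12, which allows up to 1.42 CPM.

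The receptor Cxcr4 had 72.7% of its 359 UMIs in Müller-like cells and 10.3% in VEC-like cells, at 10.3 ± 6.37 CPM (SD, n = 6) and 21.8 ± 19.0 CPM (SD, n = 3), with overlapping ranges. The 2 ligands of CSF1R had most of their UMIs in different cells, while astrocyte-like cells held a part of both (5.9% of Csf1 and 8.21% of Il34 UMIs). Csf1 had 64.4% of its 458 UMIs in Müller-like and 16.6% in microglia-like cells, and its level was 35.4 ± 16.4 CPM (SD, n = 6) in microglia-like, 31.9 ± 18.05 CPM (SD, n = 3) in astrocyte-like, 26.3 ± 7.20 CPM (SD, n = 3) in VEC-like and 11.8 ± 3.17 CPM (SD, n = 6) in Müller-like cells, where the first 3 overlapped and Müller-like cells lay below VEC-like cells without overlap. Il34, by contrast, had 82.3% of its 475 UMIs in cells with markers of vascular smooth muscle cells and pericytes (VSMC/pericyte-like), 8.21% in astrocyte-like and 5.05% in amacrine-like cells, and 0 in microglia-like cells, which allows up to 1.42 CPM.

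**Figure D1:**
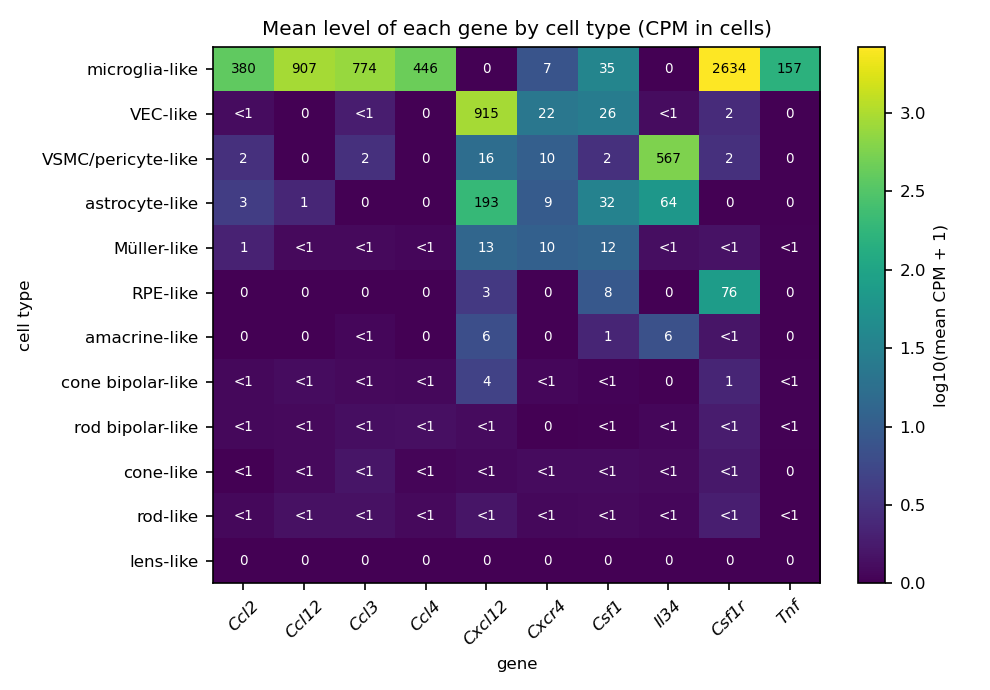
Mean level of the 10 genes (columns) in 12 named cell types (rows), in CPM written in each field and coloured as log10(mean CPM + 1), over the samples with at least 10 cells of the type. Ccl2, Ccl12, Ccl3, Ccl4, Csf1, Csf1r and Tnf peak in microglia-like cells (Csf1r at 2634 CPM), Cxcl12 in VEC-like cells at 915 CPM and Il34 in VSMC/pericyte-like cells at 567 CPM, from 1 sample.

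For each member the 3 genes with the most similar profile over the 12 types were found by Pearson's r, as a description over points that share libraries. For Cxcl12 they were Ephb4 (r = 0.944), a receptor of venous endothelium, Maoa (r = 0.939) and Lef1 (r = 0.935), a Wnt transcription factor. Il34 went with Rgs4 (r = 0.989), Daam2 (r = 0.961) and the smooth muscle gene Tagln (r = 0.940). Cxcr4 went with Slc43a3 (r = 0.980), Per1 (r = 0.977) and Maff (r = 0.975), and Csf1 with Ifit3 (r = 0.962), Anxa4 (r = 0.962) and Tap1 (r = 0.961). The genes nearest to the microglia-like members were P2ry12 for Ccl2 (r = 0.979), Mpeg1 for Ccl3 (r = 0.994), Itgam for Ccl4 (r = 1.00), Ncf1 for Ccl12 (r = 0.997), Adgre1 for Csf1r (r = 0.960) and Dock2 for Tnf (r = 1.00). P2ry12 is a gene of microglia, and the other five are genes of macrophages or leukocytes in general.

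In Müller-like cells the chemokine Cxcl12 and its receptor Cxcr4 were both higher in OIR, and both passed the test. Levels of Cxcl12 were 29.8, 15.4 and 13.3 CPM in OIR-1, OIR-2 and OIR-3 against 5.84, 6.64 and 4.68 CPM in Ctrl-1, Ctrl-2 and Ctrl-3. All OIR samples lay above all Ctrl samples, and OIR-1 stood highest. The means were 19.5 ± 8.97 and 5.72 ± 0.985 CPM (SD, n = 3 each), and the fitted difference was 1.75 on the log2 scale (SE 0.36), or 3.37-fold, with an adjusted p = 0.0333 in edgeR's quasi-likelihood test with Benjamini-Hochberg adjustment. These values rest on 393 UMIs in 237 of 3900 cells, of which 24 cells held 33.8%.

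Cxcr4 measured 10.9, 14.0 and 20.9 CPM in the OIR samples and 6.35, 4.29 and 5.26 CPM in the Ctrl samples. Again the groups did not overlap, and here OIR-3 stood highest. Its fitted difference was 1.38 on the log2 scale (SE 0.29), or 2.60-fold, with an adjusted p = 0.0382 in the same edgeR test, from 261 UMIs in 222 cells with at most 4 UMIs each. Of the 11635 genes tested in Müller-like sums 1.67% were called higher in OIR, and 13.9% had all OIR samples above all Ctrl samples.

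Csf1, the CSF1R ligand with most of its UMIs in Müller-like cells, had 13.1, 14.3 and 16.04 CPM in OIR and 8.07, 10.5 and 8.77 CPM in Ctrl Müller-like sums. The groups did not overlap either, but the difference of 0.61 on the log2 scale (SE 0.21) did not pass the edgeR test (adjusted p = 0.181). These 3 genes were the members that passed the filter on low counts in Müller-like sums. Ccl2, fitted beside them, had 34, 8 and 0 UMIs in OIR and 1, 0 and 0 in Ctrl Müller-like cells, and 29 of these 43 UMIs lay in 2 cells. Its difference of 4.31 on the log2 scale (SE 1.35) was not called (edgeR adjusted p = 0.137), but was when the replicate number entered the edgeR model as a block (adjusted p = 0.0234), with all genes tested whatever their counts (adjusted p = 0.0246) and without OIR-3 (adjusted p = 0.0481). Leaving out 1 sample moved it from 3.095, without OIR-1, to 6.30, without Ctrl-1.

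**Figure D2:**
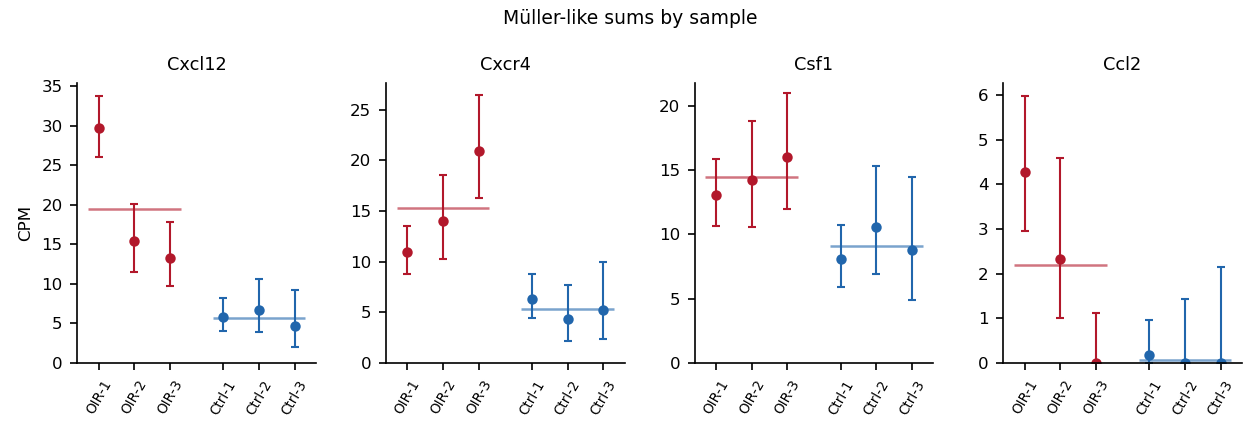
Level of Cxcl12, Cxcr4, Csf1 and Ccl2 (CPM) in the summed Müller-like cells of each sample, OIR in red and Ctrl in blue. Points are samples with exact 95% Poisson intervals, which cover counting error only, and lines are group means; all OIR points of Cxcl12, Cxcr4 and Csf1 lie above all Ctrl points, while Ccl2 is at 0 in OIR-3, Ctrl-2 and Ctrl-3.

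The same order held in the share of Müller-like cells with at least 1 UMI, which is counted from the same UMIs and is no separate evidence. Over all genes and tested types, 19.2% of pairs with at least 20 UMIs had shares without overlap. For Cxcl12 the shares were 12.7%, 4.71% and 4.25% in OIR and 3.18%, 3.67% and 2.45% in Ctrl, and for Cxcr4 7.50%, 6.89% and 8.19% against 3.28%, 3.06% and 2.45%. After each cell was thinned to 1000 UMIs, the shares for Cxcl12 were 2.78%, 1.56% and 1.08% against 0.522%, 0.990% and 0%, and those for Cxcr4 were 0.721%, 1.56% and 1.62% against 0.522%, 0% and 0.382%. Rods, which should lack both genes, had a Cxcl12 UMI in 0.0946% and a Cxcr4 UMI in 0.0394% of cells at a median depth of 1841 UMIs, against 5655.5 UMIs in Müller-like cells. Rod bipolar-like cells, at a median of 7649 UMIs, had a Cxcl12 UMI in 0.339% of cells and no Cxcr4 UMI, which allows up to 0.190 CPM.

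Müller-like cells came from 2 clusters. In the larger one, with 2199 cells led by Slc1a3, Cyr61 and Car14, Cxcl12 had 31.8, 15.8 and 15.7 CPM in OIR against 6.12, 8.06 and 5.45 CPM in Ctrl, and Cxcr4 12.3, 17.4 and 24.8 CPM against 7.11, 5.22 and 6.13 CPM. Tested alone, this cluster gave both calls. The cluster of 1701 cells with fewer UMIs, led by Ndufa4l2, Dbi and Crym, held 39 Cxcl12 and 15 Cxcr4 UMIs, and gave no call at differences of 2.50 and 2.54 on the log2 scale (edgeR adjusted p = 0.125 and 0.365).

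Genes listed as markers of astrocytes, another glial cell with Cxcl12, moved with the groups in Müller-like sums. All 5 (Gfap, Pax2, S100b, Pdgfra and Slc7a10) were detected, at a summed 59.5, 50.1 and 49.0 CPM in OIR and 34.5, 24.6 and 25.7 CPM in Ctrl. Only the sum was followed, so it does not tell astrocyte RNA from RNA that Müller-like cells make, nor which gene moved. The 9 endothelial markers, all detected, summed to between 1049 and 1245 CPM in OIR and between 899 and 1024 CPM in Ctrl. Their part in the differences of Cxcl12 and Cxcr4 was not tested. Both calls kept their direction in all 16 alternatives and were lost with a term for the sex of the pools (1.77 on the log2 scale, edgeR adjusted p = 0.0774, for Cxcl12 and 1.17, adjusted p = 0.118, for Cxcr4). With that term the OIR effect rests on Ctrl-1 as the only control of the same sex as the OIR samples. Cxcl12 was also lost in replicates 2 and 3 alone (1.21, edgeR adjusted p = 0.0675), and Cxcr4 when cells were clustered without integration (1.29, edgeR adjusted p = 0.0598). Leaving out 1 sample at a time kept the Cxcl12 call only without OIR-2 or OIR-3 and the Cxcr4 call only without Ctrl-1, with adjusted p up to 0.103 and 0.133.

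In cone bipolar-like cells, interneurons that carry cone signals, Cxcl12 stood lower in OIR, opposite to Müller-like cells. Its levels were 1.94, 0 and 0 CPM in OIR and 9.20, 4.26 and 6.998 CPM in Ctrl, from 112 UMIs, and the groups did not overlap. The share of all genes without overlap was not counted in these sums. Of these UMIs 102 lay in 1 cluster of 724 cells, led by Adarb2, Cntn5 and Gabrr3, at 8.60, 0 and 0 CPM in OIR and 37.9, 20.2 and 39.3 CPM in Ctrl. The Ctrl levels of that cluster rest on 77, 5 and 7 UMIs in 43, 2 and 4 cells of Ctrl-1, Ctrl-2 and Ctrl-3. OIR-1 held 13 UMIs in 10 cells there. Markers of ganglion cells, another retinal neuron, moved the same way without overlap in cone bipolar-like sums: all 6 were detected, at a summed 6.72, 5.46 and 7.63 CPM in OIR and 22.3, 23.9 and 15.995 CPM in Ctrl, and their part was not tested. In these sums Cxcl12 did not pass the filter on low counts and was kept in the fit as a member. The difference over all cone bipolar-like cells was -2.69 on the log2 scale (SE 0.59) and was not called (edgeR adjusted p = 0.0537). With a block for the replicate number it was (-2.71, edgeR adjusted p = 0.000938), and so it was with DESeq2 (-2.86, adjusted p = 0.0445). The value rests on the UMIs of OIR-1: without that sample it was -7.55 (edgeR adjusted p = 0.0211) and in replicates 2 and 3 alone -6.02 (edgeR adjusted p = 0.0185), fitted against an OIR group at 0 and so no measure of size, while without any other sample it lay between -2.88 and -2.16 and was not called.

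The difference between the 2 OIR effects was tested in 1 edgeR model over both types. The OIR effect on Cxcl12 was higher in Müller-like than in cone bipolar-like cells by 4.69 on the log2 scale (SE 0.56, edgeR adjusted p = 0.00243). Of 12637 genes in that model 0.791% were called. The comparison was added after the levels had been seen, and leaving out 1 sample at a time gave 4.08 to 8.73, with the highest value without OIR-1, where no OIR cone bipolar-like cell held a Cxcl12 UMI.

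In VEC-like cells, the type with the most Cxcl12 UMIs over all samples together, levels were 301, 825 and 0 CPM in OIR and 1156, 2865 and 1289 CPM in Ctrl. All OIR samples lay below all Ctrl samples, but OIR-2 and OIR-3 held 2 VEC-like cells each and Ctrl-2 held 4. How many of all genes had that order was not counted here. The 2 cells of OIR-3 went against their name, with 5 UMIs of the 9 endothelial markers (1462 CPM, against 8641 to 15312 CPM in the other samples) and rod RNA at 26893 CPM, and their 0 allows up to 876.9 CPM. The difference of -2.32 on the log2 scale (SE 0.74) was not called (edgeR adjusted p = 0.326), and without OIR-3 it was -1.97 (edgeR adjusted p = 0.336). Cxcr4 had 37 VEC-like UMIs, 35 in Ctrl-1 and 2 in Ctrl-3, of which 19 lay in 2 cells, and 0 in OIR. Astrocyte-like cells had Cxcl12 levels of 104, 266 and 324 CPM in OIR and 208, 549 and 994 CPM in Ctrl, which overlapped, and were too few for a test (1 to 23 cells a sample).

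**Figure D3:**
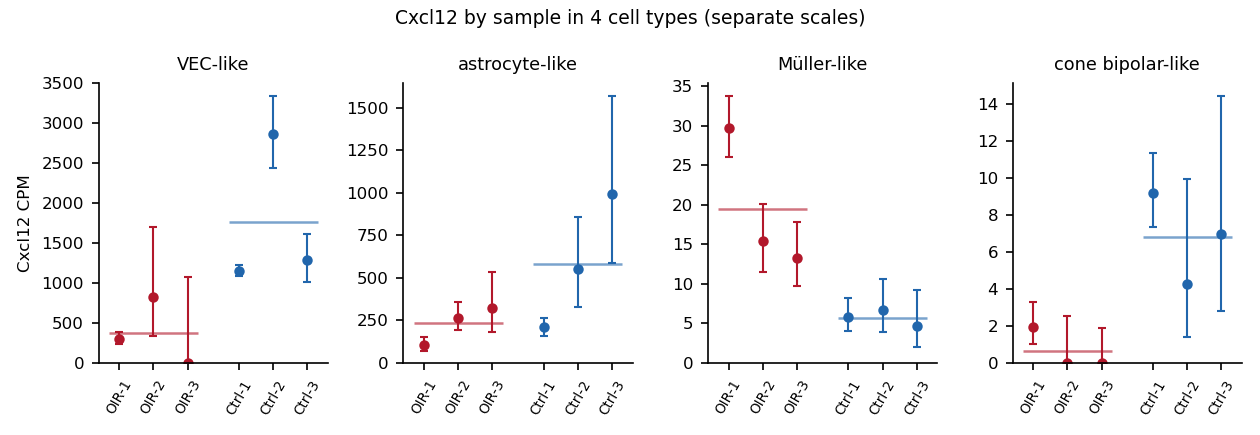
Cxcl12 level (CPM) by sample in VEC-like, astrocyte-like, Müller-like and cone bipolar-like cells, each on its own scale, OIR in red and Ctrl in blue. Points carry exact 95% Poisson intervals and lines are group means; all OIR points lie below all Ctrl points in VEC-like and cone bipolar-like cells and above them in Müller-like cells.

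In microglia-like cells no member was called, of 8 with a UMI and 6 that passed the filter on low counts. Of 3395 genes tested there 0.383% were called, and at an unadjusted p under 0.05 there were 323 genes, while DESeq2 called no member either. Microglia-like cells numbered 71, 17 and 21 in OIR and 81, 20 and 34 in Ctrl. Among named cells other than rods, their share was 2.29%, 1.15% and 1.35% in OIR and 1.69%, 1.97% and 3.77% in Ctrl, a difference within the spread (exact permutation test, two-sided p = 0.3, where 0.1 is the smallest possible). With clustering without integration the shares were 5.35%, 4.18% and 6.56% in OIR and 3.73%, 4.89% and 8.16% in Ctrl, which overlapped. Simulated 2-fold changes in microglia-like sums were recovered in 32.5% of genes and 4-fold changes in 84.5%, so that differences of about 2-fold were often not detectable in these sums. Of the calls made in these simulations 9.72% and 6.63% were false.

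The monocyte attractant Ccl2 measured 549, 349.9 and 639 CPM in OIR and 228, 308 and 206 CPM in Ctrl. All OIR samples lay above all Ctrl samples, as for 6.6% of the genes tested. The means were 513 ± 148 and 247 ± 53.7 CPM (SD, n = 3 each), a difference of 1.11 on the log2 scale (SE 0.27) that missed the threshold (edgeR adjusted p = 0.104). A Ccl2 UMI was found in 73.2%, 52.9% and 81.0% of OIR and 45.7%, 55.0% and 35.3% of Ctrl microglia-like cells, which overlapped. The OIR cells were deeper, with medians of 9673 to 11795 UMIs against 5603 to 7005 UMIs, and after thinning to 1000 UMIs the shares were 36.6%, 5.88% and 47.6% against 14.8%, 30% and 11.8%.

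Ccl12, also on chromosome 11, measured 1809, 639 and 1552 CPM in OIR and 226, 818 and 396 CPM in Ctrl. Here OIR-2 lay below Ctrl-2, and the difference of 1.61 on the log2 scale (SE 0.41) missed the threshold too (edgeR adjusted p = 0.112). Its RNA was concentrated: 19 of the 186 cells with a Ccl12 UMI held 59.9% of 2219 UMIs, and 1 cell held 311. Both genes were called without OIR-2 (edgeR adjusted p = 0.0152 for Ccl2 and 0.0102 for Ccl12), and Ccl12 without Ctrl-2 (2.16 on the log2 scale, edgeR adjusted p = 0.0322). With a term for sex Ccl12 was also called, at 2.51, but there Ctrl-1, the lowest control, is in effect the only control. In replicates 2 and 3 alone Ccl12 differed by 0.95 and was not called (edgeR adjusted p = 0.390).

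Genes of border macrophages, the macrophages around vessels and in the meninges, stood beside these values. All 8 were detected in microglia-like sums, at a summed 603, 22.2 and 1773 CPM in OIR and 1.70, 168 and 0 CPM in Ctrl. Of the 8 monocyte and granulocyte genes 1 was detected, with up to 106 CPM in OIR and 14.0 CPM in Ctrl, and S100a8, S100a9 and Ccr2 were at 0. Without the 19 cells with RNA of either list, Ccl2 differed by 1.08 (edgeR adjusted p = 0.0471) and Ccl12 by 1.98 on the log2 scale (edgeR adjusted p = 0.00987), and both were called. Homeostatic microglia genes, such as P2ry12 and Tmem119, summed to 12578, 11956 and 14500.3 CPM in OIR and 15531, 19466 and 21236 CPM in Ctrl, without overlap, and their part was not tested.

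Ccl3 and Ccl4 overlapped widely between the groups. Ccl3 had 245, 1161 and 909 CPM in OIR and 1170.3, 595 and 564 CPM in Ctrl, and Ccl4 213, 294 and 1021 CPM against 617, 238 and 290.1 CPM. Their differences were -0.09 (SE 0.43, edgeR adjusted p = 0.987) and 0.32 (SE 0.49, edgeR adjusted p = 0.917) on the log2 scale. The sign of Ccl3 changed without OIR-1 or Ctrl-1, and that of Ccl4 without OIR-3. Early response genes that rise during tissue dissociation, summed over 15 genes, lay between 5385 and 9052 CPM in OIR and between 9399 and 10628 CPM in Ctrl microglia-like sums, and their part was not tested.

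Tnf measured 105, 111 and 197 CPM in OIR and 165, 182 and 185 CPM in Ctrl, with OIR-3 above all Ctrl samples and the other two below them. The difference of -0.36 on the log2 scale (SE 0.27) was not called (edgeR adjusted p = 0.742). Csf1r was found in 100% of microglia-like cells, at 2067, 2677 and 2709.5 CPM in OIR and 1851, 3315.5 and 3186 CPM in Ctrl, a difference of -0.12 (SE 0.23, edgeR adjusted p = 0.936). Csf1, from 76 UMIs of which 1 cell held 22, had 33.6 ± 19.5 and 37.1 ± 16.8 CPM (SD, n = 3 each), and its fitted difference had the other sign than the means, at 0.23 (SE 0.50, edgeR adjusted p = 0.944).

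The chemokine genes overlapped within single microglia-like cells to different degrees. Of 107 cells with a Ccl4 UMI, 87 (81.3%) also held Ccl3, and of 150 cells with Ccl3, 58.0% held Ccl4. Among cells without Ccl3, 21.3% held Ccl4. Ccl12 was present in 85.5% of the 138 cells with Ccl2 and in 64.2% of those without, and Tnf, in 129 cells, was present in 60.9% of cells with Ccl2 and 42.5% of those without. Deeper cells have more chances for both UMIs, so that these shares are descriptions.

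**Figure D4:**
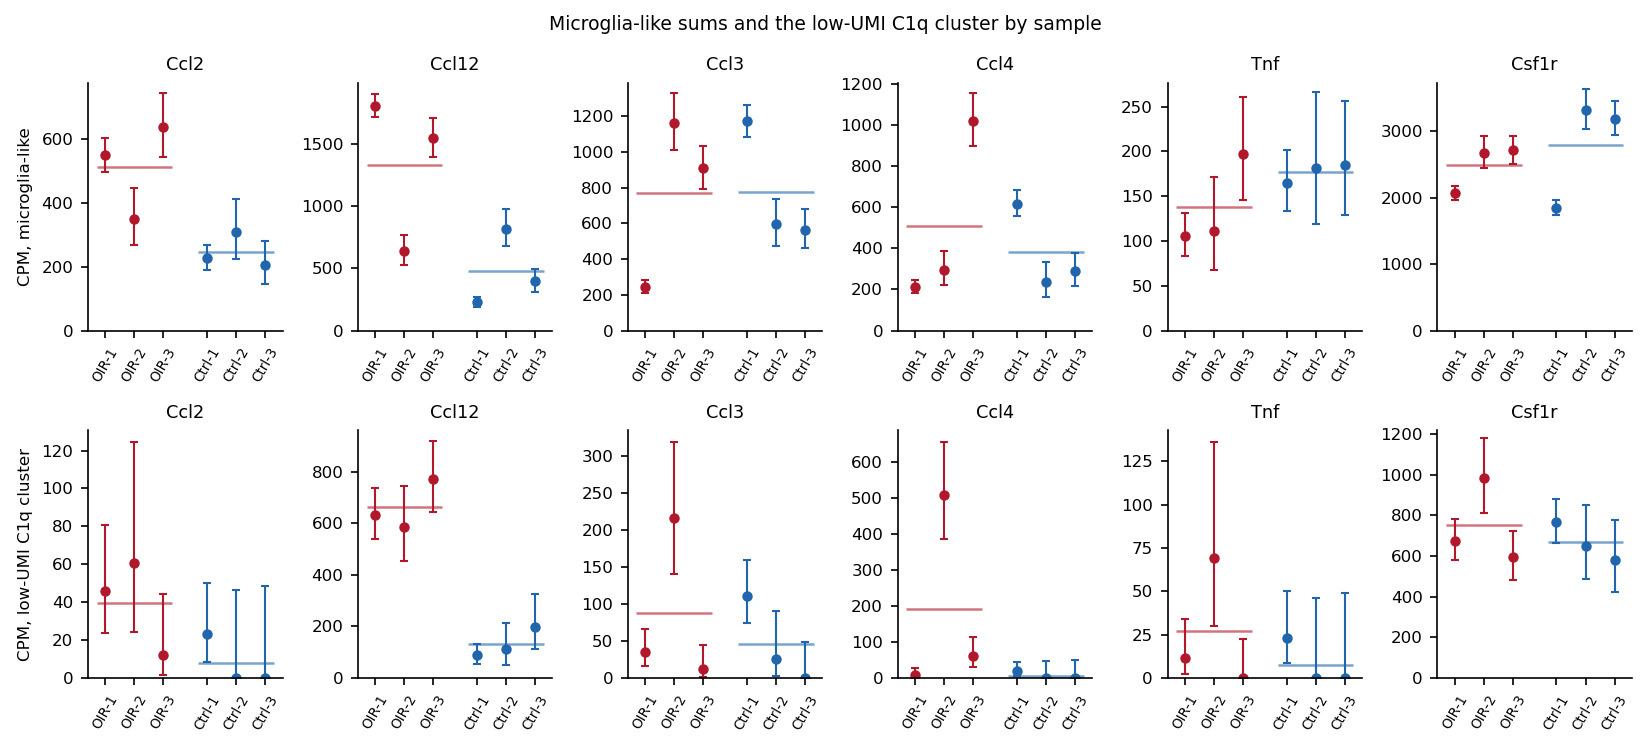
Level of Ccl2, Ccl12, Ccl3, Ccl4, Tnf and Csf1r (CPM) by sample in microglia-like cells (top) and in the unnamed low-UMI cluster with C1q RNA (bottom), OIR in red and Ctrl in blue. Points carry exact 95% Poisson intervals and lines are group means; Ccl12 of the low-UMI cluster lies between 587 and 772 CPM in OIR and between 88.1 and 198 CPM in Ctrl.

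Another cluster with immune RNA, of 374 cells, was left without a name. A UMI of C1qa, C1qb or C1qc was found in 93.3% of its cells and one of P2ry12, Tmem119 or Cx3cr1 in 61.8%, against 1.92% and 0.221% of rod-like cells, but its median depth was 1793 UMIs against 7823.5 in microglia-like cells, and its leading genes by fold were S100a9, S100a8 and Igkc, found in 2 (S100a8 or S100a9) and 6 (Igkc) of its cells. In this cluster Ccl12 was higher in OIR. Levels were 634, 587 and 772 CPM in OIR and 88.1, 113 and 198 CPM in Ctrl, without overlap. The share of all genes without overlap was not counted in this cluster. The difference was 2.35 on the log2 scale (SE 0.32), or 5.10-fold, with edgeR adjusted p = 0.0281. Ccl12 was the only gene called of 2012 tested, so the share called of 0.0497% is Ccl12 itself. Clustering without integration left no such cluster unnamed and gave 1 microglia-like cluster of 623 cells. Summed together with microglia-like cells, the cluster of 374 cells gave 0 members called.

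The share of cells with a Ccl12 UMI in the cluster was 38.5%, 33.3% and 52.6% in OIR and 15.1%, 21.4% and 16.2% in Ctrl, against 0.0946% of rod-like cells at a like median depth. After thinning to 1000 UMIs it was 33.7%, 25% and 40.3% against 11.3%, 21.4% and 10.0%. Border macrophage genes, all 8 detected, summed to 526, 1407 and 184 CPM in OIR and 7.66, 25.02 and 251 CPM in Ctrl, and monocyte and granulocyte genes to 6812 CPM in OIR-1 and up to 490.03 CPM elsewhere. The 10 microglia markers moved with the groups without overlap, at a summed 21397, 23992 and 22549 CPM in OIR and 19559, 15776 and 11562 CPM in Ctrl, and leukocyte markers stood highest in OIR-1 (6766 CPM) and Ctrl-3 (9239 CPM), and their part was not tested. Without the 38 cells that held border macrophage, monocyte or granulocyte RNA, Ccl12 was still called (2.33 on the log2 scale, edgeR adjusted p = 0.00309). The lists of microglia and leukocyte markers were not used to remove cells. The call was lost with a term for sex (2.84, edgeR adjusted p = 0.0584), in replicates 2 and 3 alone (2.03, edgeR adjusted p = 0.0643) and without OIR-1, OIR-2, OIR-3 or Ctrl-2 (edgeR adjusted p up to 0.194).

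Among the other members in this cluster, Csf1r had 676, 984 and 594 CPM in OIR and 769, 651 and 581 CPM in Ctrl, a difference of 0.09 on the log2 scale (SE 0.27, edgeR adjusted p = 0.971). Ccl4 had 76 UMIs, 59 of them in OIR-2, and 50 in 2 cells. Tnf, Ccl2 and Ccl3 had 17, 27 and 67 UMIs and overlapped between the groups.

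The CSF1R axis outside microglia-like cells gave no call. RPE-like cells, pigmented cells that lie behind the photoreceptors, held Csf1r at 50.9, 48.1 and 46.4 CPM in OIR and 57.1, 181 and 74.3 CPM in Ctrl, from 64 UMIs in 42 of 236 cells. The groups did not overlap, an order that was not counted over all genes there. The difference of -1.40 on the log2 scale (SE 0.54) was not called (edgeR adjusted p = 0.794). Csf1r did not pass the filter on low counts there. Of the 64 UMIs 42 lay in Ctrl-2, and without that sample the difference was -0.40. Microglia markers were detected there too, 6 of 10 at a summed 60.4 to 136 CPM, within the range of Csf1r, while P2ry12, Tmem119, Cx3cr1 and Aif1 were at 0, and their part was not tested. Il34 in VSMC/pericyte-like cells was at 564, 60.9 and 71.3 CPM in OIR and 567, 553 and 354 CPM in Ctrl, from 5, 2 and 6 OIR and 63, 5 and 5 Ctrl cells, too few for a test. The 6 cells of OIR-3 went against their name, with fibroblast markers at 53534 CPM (196 to 634 CPM in the other samples) and VSMC/pericyte markers at 1022 CPM (23025 to 39355 CPM in the others). In amacrine-like cells Il34 had 24 UMIs, 1 in OIR and 23 in Ctrl, 20 of them in Ctrl-1 (-2.61 on the log2 scale, SE 1.28, edgeR adjusted p = 0.812). In the 7 tested types other than Müller-like and microglia-like cells together, 0 members were called by edgeR, 1 by DESeq2 (Cxcl12 in cone bipolar-like cells), and 1.52% of all pairs of a gene and a type. Only 1 pair of a member and a type there, Cxcl12 in VEC-like cells, passed the filter on low counts. The other members were fitted whatever their counts, beside genes that had passed, so the 0 is not set against that share.

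Over all cells of a sample, 0 of the 10 members were called by edgeR, with 0% of 15167 genes called, 1188 genes at an unadjusted p under 0.05, and 1 member (Ccl12) called by DESeq2. In such sums more cells of a type and more RNA per cell cannot be told apart. Ccl12 had 48.5, 9.02 and 23.5 CPM in OIR and 4.52, 7.36 and 6.35 CPM in Ctrl, without overlap (2.05 on the log2 scale, SE 0.60, edgeR adjusted p = 0.541, DESeq2 adjusted p = 0.0347). With 1 sample left out its difference lay between 1.30 and 2.48. No share of genes without overlap was counted in sums over all cells. Cxcl12 had 10.5, 5.67 and 2.84 CPM in OIR and 42.3, 11.9 and 7.98 CPM in Ctrl (-1.77, SE 0.71, edgeR adjusted p = 0.623). With a block for the replicate number it was called (-1.66, edgeR adjusted p = 0.0285), and without Ctrl-1, which held 145 of the 194 VEC-like cells, it was -0.78. Its sign over all cells was thus that of VEC-like and not of Müller-like cells. Cxcr4, at 3.01, 3.01 and 3.25 CPM in OIR and 2.69, 0.812 and 1.09 CPM in Ctrl, was called only in replicates 2 and 3 alone (1.58, edgeR adjusted p = 0.0489).

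Whether the OIR effect in microglia-like cells differed from that in all other cells was tested by an interaction term, where 0.296% of 14187 genes were called and 0 members. The lowest p of a member was that of Ccl4 (-1.55 on the log2 scale, SE 0.52, edgeR adjusted p = 0.356), which was called without OIR-1 or without OIR-3. It was -0.14 without OIR-2 and turned to 0.99 with clustering without integration, where Ccl12 turned from -0.76 to 0.50, and the other cells include the low-UMI cluster with 59 Ccl4 UMIs in OIR-2. At an unadjusted p under 0.05 there were 2 members, Ccl4 and Ccl12. Of the 22 pairs of a member and a tested type with at least 20 UMIs, 5 had shares of positive cells that did not overlap between the groups, while 19.2% of such pairs did so over all genes. The 5 were Cxcl12 and Cxcr4 in Müller-like, Cxcl12 in cone bipolar-like, and Ccl12 and Tnf in microglia-like cells, each with the smallest p that an exact permutation test of 3 against 3 can give (0.1, adjusted p = 0.44). After thinning to 1000 UMIs both microglia-like pairs overlapped, with Ccl12 in 50.7%, 41.2% and 61.9% of OIR and 16.05%, 55% and 26.5% of Ctrl cells (exact permutation p = 0.3) and Tnf in 8.45%, 17.6% and 4.76% against 12.3%, 15% and 17.6% (exact permutation p = 0.4). The unthinned Tnf shares were higher in the deeper OIR cells, against its lower fitted level, and no order is read from them.

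Other genes of these pathways gave few calls. In Müller-like sums 4 of 29 other chemokine ligands passed the filter on low counts, and 1 was called lower: Cxcl14, a chemokine of epithelia and neurons, with 20.9, 17.8 and 9.08 CPM in OIR and 86.6, 49.96 and 49.1 CPM in Ctrl (-1.99 on the log2 scale, SE 0.31, edgeR adjusted p = 0.0119). The 4 ligands had a median difference of -0.42 on the log2 scale. Over all genes, 134 of 11635 were called lower in Müller-like sums. Of 13 genes of the colony-stimulating factor family and IL-34 co-receptors 4 passed the filter, with a median difference of 1.07 against -0.0085 over all genes, and 1 was called higher: Kitl, which encodes stem cell factor, with 12.5, 11.6 and 9.69 CPM in OIR and 4.81, 1.95 and 4.09 CPM in Ctrl (1.52, SE 0.32, edgeR adjusted p = 0.0368). Kitl met the filter on low counts only through its OIR levels, since Ctrl-2, with 5 UMIs, lay under the limit. Its call and the median of this list are therefore descriptions only. The Kitl call was lost with a term for sex (1.197, edgeR adjusted p = 0.1099) and without each sample but Ctrl-1 (edgeR adjusted p up to 0.141).

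Of 22 other chemokine receptors 1 passed the filter in Müller-like sums, and of 16 genes of TNF processing, TNF receptors and NF-kappaB targets 11 did, and 0 of either list were called, with a median of 0.11 for the TNF list. In microglia-like sums the same 4 lists had 4, 5, 3 and 8 genes past the filter and 0 called, and the median of the TNF list was -0.30 against -0.0079 over all genes. In cone bipolar-like sums Cx3cl1, the neuronal chemokine that binds CX3CR1 on microglia, was called lower, with 2.84, 2.73 and 0.509 CPM in OIR and 15.96, 5.96 and 7.998 CPM in Ctrl (-2.40, SE 0.47, edgeR adjusted p = 0.0309), beside the lower values of Cxcl12 and of the ganglion cell markers there. Cx3cl1 met the filter on low counts through its Ctrl levels alone, since its OIR levels lay under the limit. The call is therefore given as a description only, and 36 of 10276 genes tested in cone bipolar-like sums were called lower. Rod genes, 10 listed to follow free rod RNA, overlapped between the groups in Müller-like sums. Their summed levels were 7587, 8950 and 10258 CPM in OIR and 12488, 13634 and 8549 CPM in Ctrl. All 10 passed the filter, and 1 was called lower, Gnat1 (-0.86, SE 0.18, edgeR adjusted p = 0.0388). That call was lost without OIR-1, OIR-2, OIR-3 or Ctrl-2, with a term for sex, in replicates 2 and 3 alone and at a mitochondrial limit of 10%.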

How the data were processed

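The authors deposited raw UMI counts per gene and barcode from 10x 3′ libraries of 6 pools of mouse retina, as whole numbers without normalization. The submitters' processing notes name build mm10. The study's methods name a human build, while the gene identifiers are those of mouse, and the matrix headers give a Cell Ranger software version other than the one in those methods. The 47631 barcodes held between 15788524 and 42606878 UMIs per sample, and every barcode held at least 500, so that free RNA in empty droplets was not measured. Pairs of samples shared 9 to 34 barcodes, at most 0.372% of the smaller sample. Depth was highest in the replicate 1 samples, with a median of 3958 UMIs per cell in OIR-1 and 4850.0 in Ctrl-1, against 1449.5 to 2354 in the others.

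Cells with fewer than 500 or more than 5000 genes or over 20% mitochondrial counts were removed, which left 19028 OIR and 19541 Ctrl cells. Seurat 5.3.0 in R 4.3.3 integrated the 2 groups by canonical correlation (2000 variable genes less the 10 members, 15 components, 20 neighbours, resolution 0.5), and clusters were named from marker lists. Doublets were kept, and an alternative removed the cells with the highest Scrublet scores (scanpy 1.11.5), 0.8% per 1000 barcodes. Counts were summed per sample and type, and types that reached 10 cells in all 6 samples were tested, as were VEC-like cells. The sums were tested with edgeR 4.0.16 (TMM, filterByExpr with the members kept in, quasi-likelihood test, no covariate). A call needed a Benjamini-Hochberg adjusted p under 0.05 over all genes tested and a log2 difference of at least 0.25 in size. Shares were compared by exact two-sided permutation tests (SciPy 1.17.1). Poisson intervals are exact at 95%, an upper limit for 0 counts takes 3 counts, and both cover counting error only. Cells were also thinned to 1000 UMIs, which 3160 cells did not reach. Alternatives were DESeq2 1.42.0, all genes without the filter on low counts, fits without each sample in turn, a block for the replicate number, a term for sex, replicates 2 and 3 alone, a mitochondrial limit of 10%, Leiden clustering without integration and removal of cells with macrophage or monocyte RNA. A term for sex leaves Ctrl-1 as the only control for the OIR effect, since Ctrl-2 and Ctrl-3 differ in sex from all OIR samples. Tests of the unnamed cluster, alone or together with microglia-like cells, of single Müller-like clusters and of Müller-like against cone bipolar-like cells were added after the data were seen.

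The members and lists were chosen with earlier results of these data known. The text names all 10 members, at most 4 called genes per list and direction by lowest p, and for each member the 3 genes of at least 200 UMIs with the highest Pearson correlation of log2(CPM + 1) over the types. On simulated counts the Müller-like test recovered 59% of 2-fold and 96% of 4-fold changes. Of the calls made there 9.92% and 4.48% were false, beside a threshold of 0.05 on the adjusted p. Samples with the same replicate number deviated together in sums over all cells (r = 0.670, 0.298 and 0.506) and in cone bipolar-like sums (0.348, 0.132 and 0.195), but not in each pair of Müller-like (0.229, -0.046 and 0.236) or microglia-like sums (0.212, -0.076 and 0.033). Over all cells, OIR-3 with Ctrl-2 (0.397) and OIR-2 with Ctrl-3 (0.231) also deviated together. Pairs of a replicate 1 sample with replicate 2 or 3 lay between -0.587 and -0.336. Deviations were taken from each group's mean of 3 samples and so sum to 0 within a group. The signs of these pairs are thus partly set in advance, and they do not tell whether the numbers mark matched pairs. Nothing says what a shared number stands for, and p-values measure the spread between these pools. Promoters came from RefSeq on GRCm38.p6, where 6 of the 10 members matched, and positions from a GRCm38 annotation.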

Additional observations from a re-analysis of the deposited data

Results flagged for a closer look

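The OIR effect on Cxcl12 differed between cell types in a test of the difference itself: it was higher in Müller-like than in cone bipolar-like cells by 4.69 on the log2 scale (SE 0.56, edgeR adjusted p = 0.00243). In Müller-like cells all 3 OIR samples lay above all 3 Ctrl samples (means of 19.5 and 5.72 CPM), as for 13.9% of the genes tested there. In cone bipolar-like cells all 3 lay below (means of 0.647 and 6.82 CPM), where 2 of the OIR samples held no Cxcl12 UMI. In the cluster with most of these UMIs, 77 of 102 came from Ctrl-1, and Ctrl-2 and Ctrl-3 held 5 and 7. The share of all genes in that order was not counted there. The comparison was added after these levels had been seen, and its adjusted p does not count that choice. Summed astrocyte list genes, Gfap among them, in Müller-like and summed ganglion cell markers in cone bipolar-like sums moved the same ways as Cxcl12. Which of these genes moved was not resolved, and their part was not tested.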

How the results depend on the processing

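Counts of members called depended on the settings, and the cause was not tested. In Müller-like sums, where 2 members were called, the count was 0 with a term for sex and in the low-UMI cluster alone, 1 in replicates 2 and 3 alone and 1 with Leiden clustering, and 0 to 2 with 1 sample left out. In microglia-like sums, where 0 were called, it was 2 without a filter on low counts, 1 with a term for sex, 2 without cells with macrophage or monocyte RNA and 0 to 2 with 1 sample left out. In the low-UMI C1q cluster, with 1 called, it was 2 without a filter, 0 with a term for sex, 0 in replicates 2 and 3 alone and 0 to 1 with 1 sample left out. In the other types, with 0 called, it was 1 with DESeq2, 2 without a filter, 1 with the replicate block, 2 with a term for sex, 1 in replicates 2 and 3 alone, 1 after removal of high Scrublet scores and 0 to 1 with 1 sample left out. In sums over all cells, with 0 called, it was 1 with DESeq2 (Ccl12), 1 with the replicate block (Cxcl12) and 1 in replicates 2 and 3 alone (Cxcr4). The interaction of microglia-like with all other cells gave 0 to 1 with 1 sample left out, and the shares 5 to 9 pairs without overlap. Genes of the pathway lists called in microglia-like and Müller-like sums, 3 in number, became 7 with DESeq2, 19 without a filter, 5 with the replicate block, 7 in replicates 2 and 3 alone, 7 with Leiden clustering, 6 after removal of high Scrublet scores and 1 to 6 with 1 sample left out. Beside the calls given in the report, the replicate block changed no other call of a member.

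Signs of differences that were not called changed in some fits. With 1 sample left out, microglia-like sums gave -0.48 to 0.44 for Ccl3, -0.68 to 1.00 for Ccl4 and -0.18 to 0.52 for Csf1, and the low-UMI cluster -0.089 to 0.27 for Csf1r. In microglia-like sums Ccl3 was 0.89 and Csf1 -0.44 in replicates 2 and 3 alone, Ccl4 was -0.39 and Csf1r 0.34 with a term for sex, and Csf1 was -0.44 at a mitochondrial limit of 10%. In the low-UMI cluster Csf1r was -0.10 with a term for sex and -0.29 without cells with macrophage or monocyte RNA. In the interaction of microglia-like with all other cells, clustering without integration gave 0.99 for Ccl4 and 0.50 for Ccl12. Few cells in microglia-like, VEC-like and astrocyte-like sums limit what could be detected.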
